A study of Mus musculus with 6 samples.

Results

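Aminoacyl-tRNA synthetases are the enzymes that attach each amino acid to its transfer RNA. Here their transcripts were followed in C2C12 myotubes, cells of an immortalized mouse myoblast line that fuse in low serum. The members are 36 listed genes, 20 for cytosolic enzymes and 16 for mitochondrial enzymes (symbols ending in 2). Each was taken from a probe set that the platform annotation gives to 1 gene, with the highest-mean probe set kept where a gene had several. This gave 33 of the 36 genes, 17 cytosolic and 16 mitochondrial, out of 18820 genes in all. Aars lies on a probe set shared with Exosc6, Farsb on one shared with Sgpp2, and Dars is not listed in the annotation used, so these 3 are not analysed here. All 33 lay above the low-value limit, a mean log2 level of 3.87, and were among the 11292 genes tested.

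The silenced group was 3 arrays of C2C12 cells transfected with an LNA inhibitor of miR-382-5p at 50 nM on day 6 of differentiation in 2% horse serum, and harvested 24 h later on day 7. The control group was 3 arrays of C2C12 cells of the same age and medium, transfected with negative control A and harvested at the same time. Both groups are 1 cell line with no genetic change, so all arrays share its genotype, and each group carries replicate numbers 1 to 3. Whether a group's samples came from separate cultures is not labelled, and p-values therefore cover only the variation among these arrays, part of which may be technical. The miRNA that was silenced is shown with its seed, bases 2 to 8, in capitals (RefSeq, GRCm38.p6, chr12:109733781-109733802, plus strand).
mmu-miR-382-5p: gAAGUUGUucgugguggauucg
The precursor probe set Mir382 read 2.27, 2.28 and 1.99 in silenced arrays and 1.69, 1.99 and 1.76 in control arrays. That level is passed by all but 3.21% of genes, and it does not measure the action of an inhibitor on the mature miRNA.

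In animals the cytosolic and mitochondrial protein synthesis machineries use largely separate synthetases, all encoded in the nucleus. Several cytosolic synthetases are held in a multisynthetase complex on the scaffold proteins AIMP1, AIMP2 and EEF1E1. The transcription factor ATF4, which is made when eIF2 alpha is phosphorylated, for example by the uncharged-tRNA sensor GCN2, is known to raise many cytosolic synthetase genes together with genes of amino acid synthesis and transport. Muscle cells rely on both sets of enzymes to build contractile and respiratory proteins.

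Values are log2 levels per array as the authors made them with RMA, which compresses differences of dim genes. A probe set's level depends on its probes, so levels are compared between arrays and not between genes. The cytosolic probe sets averaged between 6.90 and 11.16 and the mitochondrial ones between 4.31 and 8.38. Arrays correlated pairwise between 0.985 and 0.995. Both arrays numbered 1, silenced and control, stood apart from the other 4. The contrast of number 1 with numbers 2 and 3 called 6.49% of all genes, and that of number 2 with number 3 called 0.0%. A fit without both arrays numbered 1 called 98 genes between numbers 2 and 3, so these numbers also differed. For this reason differences between replicate numbers are given beside those between groups. Of the markers set for cell types, all 10 myotube genes were tested, and their mean log2 level was 10.90 to 11.04 in silenced arrays and 10.85 to 10.92 in control arrays. The 3 adipocyte markers with a probe set (Adipoq, Fabp4 and Plin1) had a mean level of 2.79 to 2.92 in silenced arrays and 2.81 to 2.95 in control arrays, and none reached the low-value limit. Cultures were measured in bulk, where fewer cells of a type and less RNA per cell cannot be told apart.

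Across replicate numbers, 9 of the 17 cytosolic synthetases were called lower in the arrays numbered 1 of silenced and control cells. Their log2 differences lay between -0.58 and -0.40. Of the 16 mitochondrial synthetases 0 were called lower. With 3.57% of all genes called lower, 16 genes hold few or no calls, so this 0 is a description only. The comparison was a limma fit with group and replicate number as terms, with p-values adjusted by the Benjamini-Hochberg method over all 11292 genes. A moderated F test over the 3 numbers, with a threshold of 0.05, called 3 of the 17 cytosolic genes (Cars, Sars and Yars) and 0 of the 16 mitochondrial genes, where it called 3.12% of all genes. The contrast of number 1 with the mean of numbers 2 and 3 in the same fit called 9 of the 17 cytosolic genes as lower in number 1, against 3.57% of all genes, and 0 as higher. It called 1 of the 16 mitochondrial genes as higher, against 2.92% of all genes, and 0 as lower. The median difference was -0.40 over the cytosolic genes, 0.022 over the mitochondrial genes and 0.0053 over all tested genes. These counts of calls depended on the processing: without a low-value limit 0 members were called, and the cytosolic count of 9 was 0 without silenced array 3 or control array 3, 2 without silenced array 2 and 5 without silenced array 1. The F test called 0 members, and the contrast 0 mitochondrial members, without any 1 of the arrays other than control array 1. In those fits the F test called 17 to 884 of all 11292 genes, and the share of all genes for the contrast is not given here. The cytosolic median stayed between -0.44 and -0.35 under every setting that gives it.

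**Figure D1:**
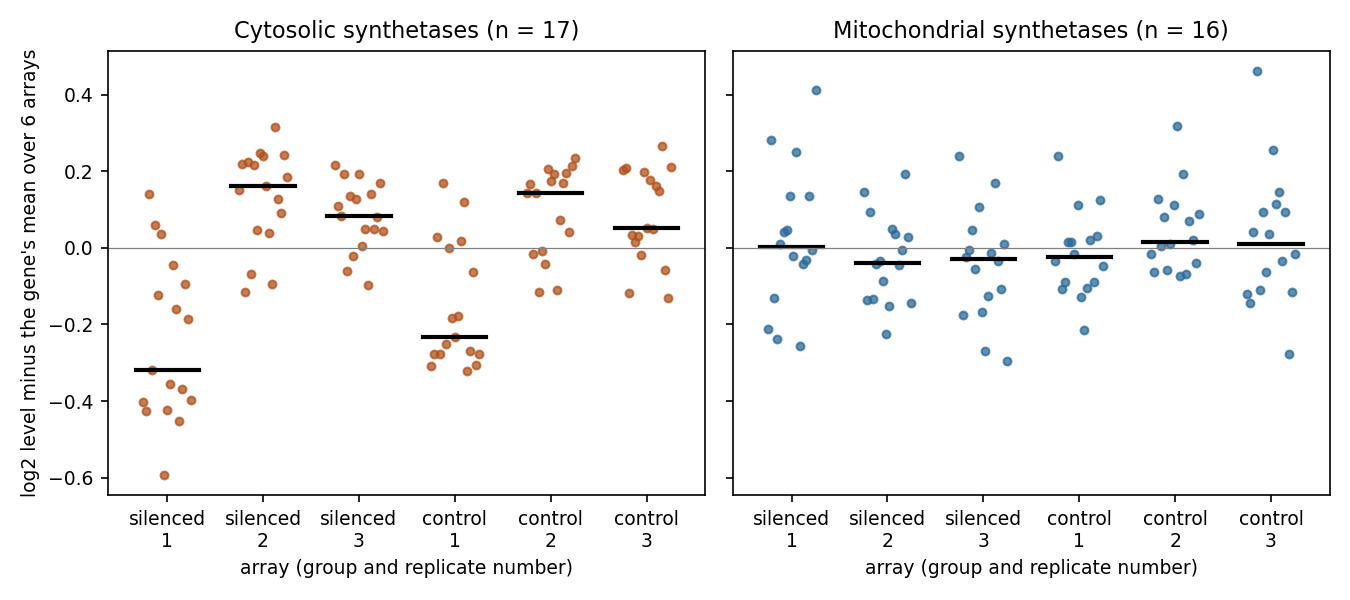
Log2 level of each synthetase gene minus its own mean over the 6 arrays (vertical axis), by array (horizontal axis, silenced 1 to 3 and then control 1 to 3), for 17 cytosolic and 16 mitochondrial genes. Each point is a gene and each black bar the median over genes, which for cytosolic genes is -0.32 in silenced array 1 and -0.23 in control array 1 and above 0 in the other 4 arrays.

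The medians of the deviations from each gene's own mean show the same split array by array. For cytosolic genes they were -0.32, 0.16 and 0.083 in silenced arrays 1 to 3 and -0.23, 0.14 and 0.052 in control arrays 1 to 3. For mitochondrial genes they were 0.0027, -0.039 and -0.029 in silenced arrays and -0.025, 0.015 and 0.0098 in control arrays. The cytosolic medians of both arrays numbered 1 thus lay below those of the other 4, whereas the mitochondrial medians had no such gap. The mitochondrial probe sets read lower, with a median level of 6.22 against 9.55, and RMA compresses differences of dim genes. The part of signal level in this split was not tested. The contrast of number 2 with number 3 called 0 of the 33 members (smallest adjusted p = 0.501, limma). In 12 of the 17 cytosolic genes both arrays numbered 1 lay below the other 4 arrays, where 15.3% of all genes did so. In 2 of the 16 mitochondrial genes, Ears2 and Rars2, they did as well. The opposite order held for the cytosolic gene Hars and for the mitochondrial genes Cars2 and Mars2, where 16.0% of all genes showed it.

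Among the cytosolic enzymes outside the multisynthetase complex, 6 of 10 were called as lower in number 1, where 3.57% of all genes were. The median difference over the 10 genes was -0.42. Sars, which charges serine tRNA, read 10.02 in silenced array 1 and 10.15 in control array 1, against 10.79 and 10.61 in silenced arrays 2 and 3 and 10.64 and 10.62 in control arrays 2 and 3. Yars, which charges tyrosine tRNA, read 8.10 in silenced array 1 and 8.22 in control array 1, against 8.68 and 8.54 in the other silenced arrays and 8.73 and 8.71 in the other control arrays. Cars, the cysteine enzyme, read 8.29 in silenced array 1 and 8.39 in control array 1, against 8.85 and 8.91 in the other silenced arrays and 8.84 and 8.90 in the other control arrays. In these 3 genes the arrays numbered 1 of both groups were the lowest, and the other 4 arrays lay close together. The differences were -0.58 ± 0.09 for Sars, -0.51 ± 0.08 for Yars and -0.53 ± 0.08 for Cars (SE, limma, adjusted p = 0.0205, 0.0205 and 0.0181), or 1.49-fold, 1.42-fold and 1.45-fold lower in number 1.

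Tars, the threonine enzyme, read 9.79 in silenced array 1 and 9.88 in control array 1, against 10.28 and 10.20 in the other silenced arrays and 10.35 and 10.42 in the other control arrays. Gars, whose gene supplies the glycine enzyme to the cytosol and to mitochondria, read 10.58 in silenced array 1 and 10.62 in control array 1, against 11.12 and 11.09 in the other silenced arrays and 11.04 and 10.93 in the other control arrays. Both genes were called in the contrast, with -0.48 ± 0.08 (adjusted p = 0.0265) for Tars and -0.45 ± 0.08 (adjusted p = 0.0340) for Gars, and in both the arrays numbered 1 did not overlap the rest. Nars, the asparagine enzyme, was the sixth, with a difference of -0.40 ± 0.08 (SE, limma, adjusted p = 0.0409). Wars, which charges tryptophan tRNA, read 8.67, 9.10 and 9.03 in silenced arrays 1 to 3 and 8.55, 9.07 and 8.73 in control arrays 1 to 3. Its difference of -0.37 ± 0.09 (SE) did not pass (adjusted p = 0.0651), and control array 3 lay nearest to the arrays numbered 1. The other 3 were the valine enzyme gene Vars at -0.12 ± 0.08 (SE), Farsa, for the alpha subunit of the phenylalanine enzyme, at 0.13 ± 0.09 (SE), and the histidine enzyme gene Hars at 0.17 ± 0.08 (SE), with adjusted p = 0.429, 0.459 and 0.253. Farsa read 7.04, 6.79 and 6.98 in silenced arrays 1 to 3 and 6.93, 6.88 and 6.78 in control arrays 1 to 3. Number 1 was the highest within each group, but silenced array 3 lay above control array 1.

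**Figure D2:**
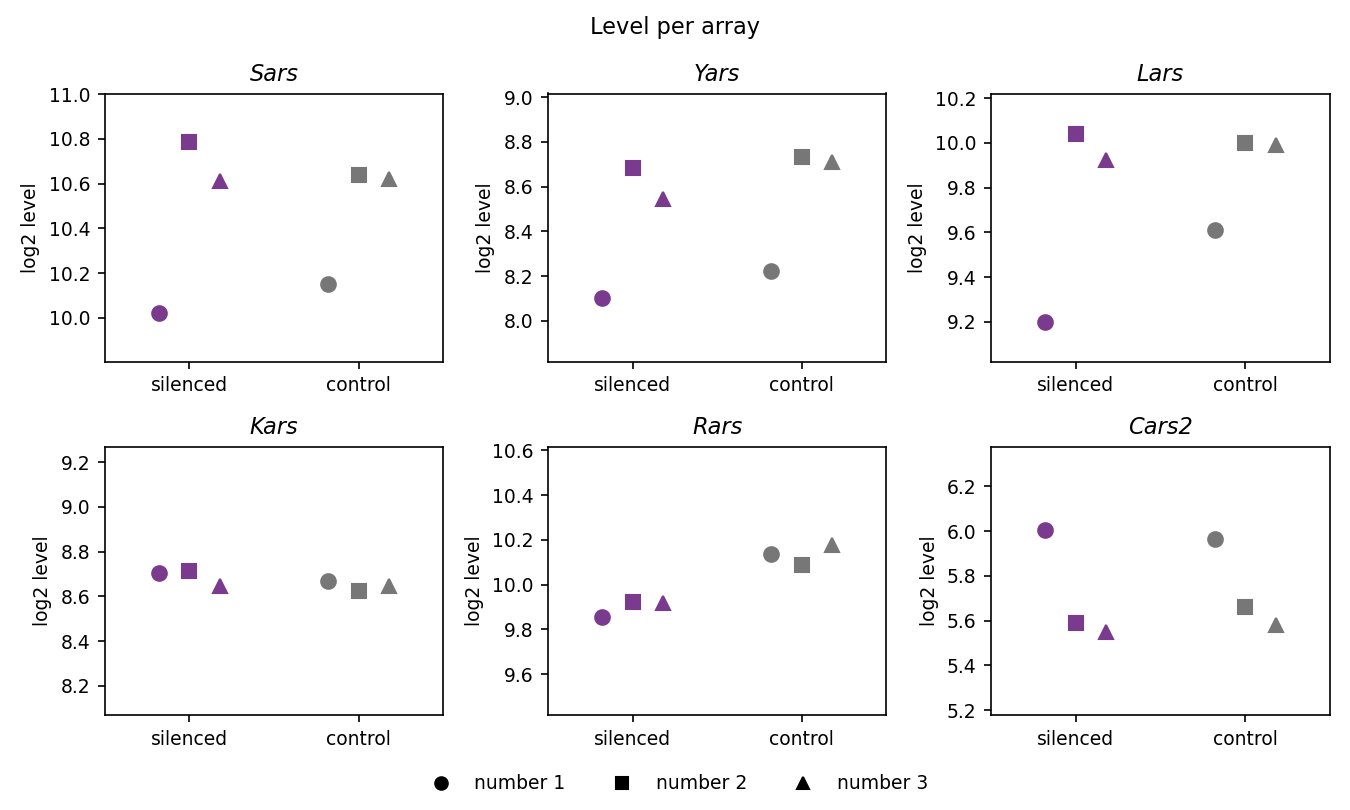
Log2 level per array (vertical axes, of equal span) of 6 synthetase genes, in silenced arrays (left in each panel) and control arrays (right), with marker shapes for replicate numbers 1 to 3. Sars, Yars and Lars are lowest in number 1 of both groups, Kars lies between 8.62 and 8.71, Rars is lower in all 3 silenced arrays, and Cars2 is highest in number 1 of both groups.

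By calls, members of the multisynthetase complex were divided. Of its 7 genes measured, 3 were called as lower in number 1, where 3.57% of all genes were. The other 4 were not called, though in Iars both arrays numbered 1 were also the lowest. The median difference over the 7 genes was -0.28. Lars, the leucine enzyme, read 9.20 in silenced array 1 and 9.61 in control array 1, against 10.04 and 9.92 in the other silenced arrays and 10.00 and 9.99 in the other control arrays. Eprs, 1 protein that charges both glutamate and proline tRNA, read 10.18 in silenced array 1 and 10.32 in control array 1, against 10.82 and 10.71 in the other silenced arrays and 10.77 and 10.81 in the other control arrays. Mars1, the methionine enzyme, read 9.13 in silenced array 1 and 9.32 in control array 1, against 9.79 and 9.74 in the other silenced arrays and 9.72 and 9.60 in the other control arrays. The differences were -0.58 ± 0.11 for Lars, -0.53 ± 0.08 for Eprs and -0.49 ± 0.10 for Mars1 (SE, limma, adjusted p = 0.0347, 0.0222 and 0.0378), and the arrays numbered 1 stood below all others in each.

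The isoleucine enzyme gene Iars read 11.03, 11.37 and 11.29 in silenced arrays 1 to 3 and 10.91, 11.15 and 11.19 in control arrays 1 to 3. Both arrays numbered 1 were again the lowest, with a difference of -0.28 ± 0.08 (SE) that did not pass (adjusted p = 0.0922). Its second probe set, not used in the fit, read 10.25, 10.57 and 10.59 in silenced arrays and 10.09, 10.52 and 10.50 in control arrays, with the same order by number. Kars, whose gene supplies the lysine enzyme to both compartments, read 8.70, 8.71 and 8.65 in silenced arrays and 8.67, 8.62 and 8.65 in control arrays. Its difference between number 1 and the others was 0.028 (95% confidence interval -0.16 to 0.21). Qars, the glutamine enzyme, differed by -0.019 (-0.22 to 0.18) and Rars, the arginine enzyme, by -0.030 (-0.22 to 0.16). The 9 called cytosolic genes had differences between -0.58 and -0.40. They were picked by this same contrast, so a gap from these 3 genes follows in part from the selection. The interval of Nars, -0.60 to -0.21, overlapped those of Qars and Rars.

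**Figure D3:**
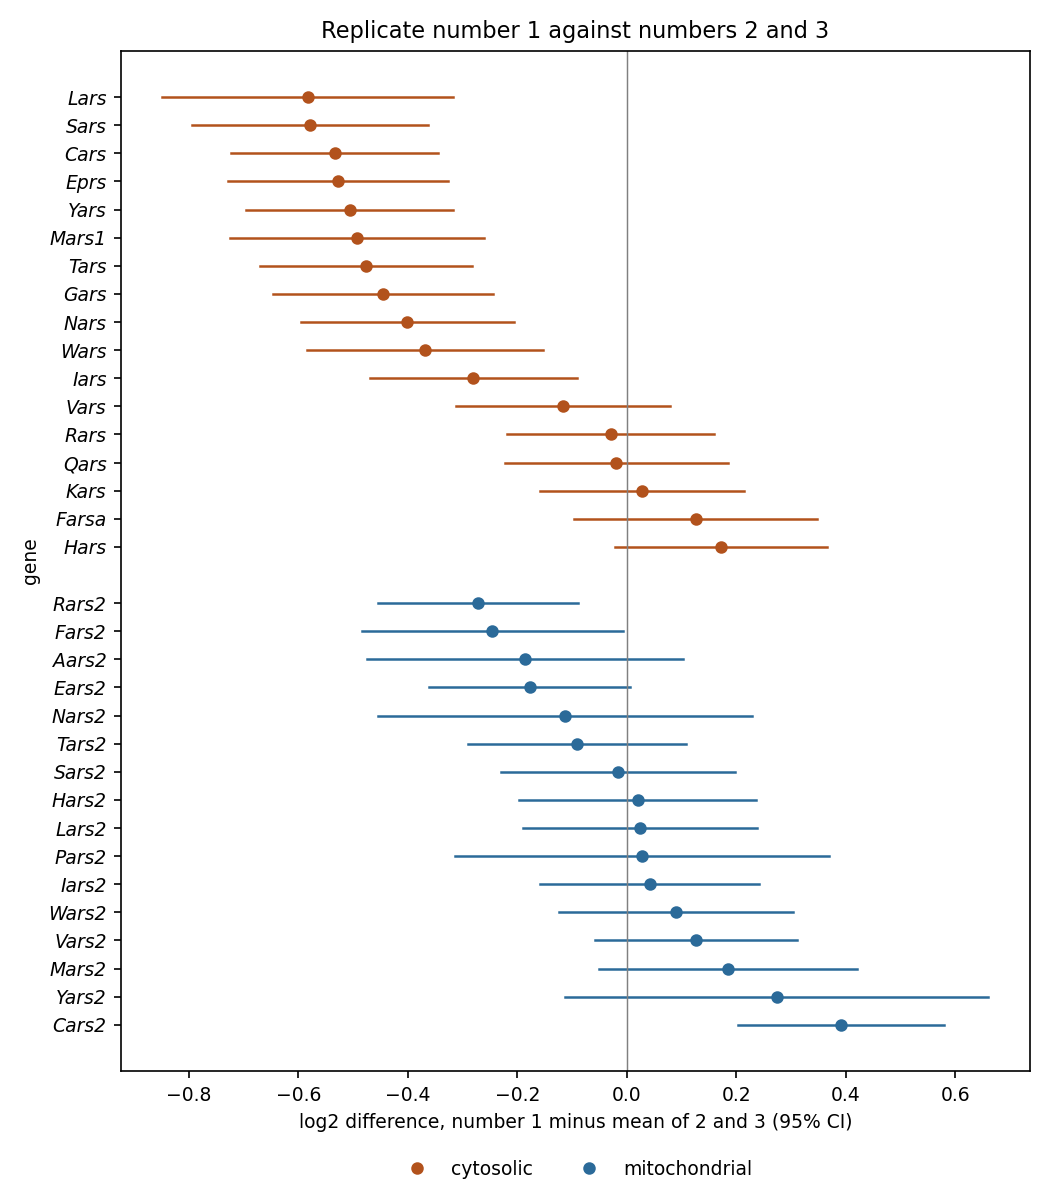
Fitted log2 difference of replicate number 1 from the mean of numbers 2 and 3 (horizontal axis) for each synthetase gene (vertical axis), with 95% confidence intervals as bars, cytosolic genes above and mitochondrial genes below. The 9 called cytosolic genes lie between -0.58 and -0.40, and the mitochondrial genes between -0.27 and 0.39.

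Among the mitochondrial enzymes the 1 called gene was higher in number 1. Cars2, the mitochondrial cysteine enzyme, read 6.01 in silenced array 1 and 5.97 in control array 1, against 5.59 and 5.55 in the other silenced arrays and 5.66 and 5.58 in the other control arrays. Cars2 was 1.31-fold higher in number 1, with a difference of 0.39 ± 0.08 (SE, limma, adjusted p = 0.0403), while its cytosolic counterpart Cars was lower. Rars2, the mitochondrial arginine enzyme, read 7.09, 7.38 and 7.33 in silenced arrays 1 to 3 and 7.24, 7.54 and 7.49 in control arrays 1 to 3. Both arrays numbered 1 were lowest, and the difference of -0.27 ± 0.08 (SE) did not pass (adjusted p = 0.0905). Vars2, the mitochondrial valine enzyme, read 6.25, 6.31 and 6.01 in silenced arrays and 6.15, 6.14 and 5.84 in control arrays, with both arrays numbered 3 lowest. The remaining mitochondrial genes, Aars2, Ears2, Fars2, Hars2, Iars2, Lars2, Mars2, Nars2, Pars2, Sars2, Tars2, Wars2 and Yars2, had differences between -0.25 for Fars2 and 0.27 for Yars2. In Yars2, the tyrosine enzyme, silenced array 1 read 7.08 and the other 5 arrays between 6.37 and 6.76, so that 1 array stood apart. Iars2, the isoleucine enzyme, read 8.42, 8.35 and 8.33 in silenced arrays and 8.40, 8.32 and 8.47 in control arrays, and Pars2, the proline enzyme, read 4.56, 4.36 and 4.18 in silenced arrays and 4.10, 4.24 and 4.42 in control arrays.

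Enzymes for the same amino acid could be set side by side in 14 pairs. The difference of number 1 from the others was lower for the cytosolic than for the mitochondrial enzyme in 11 pairs and higher in 3 (the phenylalanine, histidine and arginine enzymes), with a median gap of -0.37. The widest gaps were for cysteine, -0.92, and tyrosine, -0.78. The part of the lower mitochondrial signal levels in these gaps was not tested. By structural class, the 10 cytosolic class I enzymes had a median of -0.43 and the 7 class II enzymes -0.40. Within silenced arrays 14 of the 17 cytosolic genes were lower in number 1 than the mean of numbers 2 and 3, and within control arrays 12 were. The cytosolic median was -0.44 within silenced arrays and -0.35 within control arrays. Of the 12 genes with both arrays numbered 1 lowest, 11 had the larger gap in silenced arrays, the exception being Tars; with 1 array per number and group this was not tested.

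Genes of the ATF4 response were also lower in number 1, by a larger median. Of the 19 measured genes of ATF4 and its stress effectors, 19 had lower means in number 1. Of these, 16 were called as lower, where 3.57% of all genes were. The median was -0.92. The differences ranged from -2.26 to -0.28, so some were no larger than those of the called synthetases. Atf4 itself read 9.63 in silenced array 1 and 9.80 in control array 1, against 10.18 and 10.08 in the other silenced arrays and 10.15 and 10.24 in the other control arrays (difference -0.45 ± 0.08, SE, limma, adjusted p = 0.0346). Asns, which makes asparagine, differed by -0.68 ± 0.11 (SE, adjusted p = 0.0222). The pseudokinase gene Trib3, with -2.04 ± 0.16 (SE, adjusted p = 0.00404), and Chac1, a glutathione-degrading enzyme, with -1.30 ± 0.14 (SE, adjusted p = 0.00922), differed more than any synthetase. In all 19 genes both arrays numbered 1 lay below the other 4, as in 12 of the 17 cytosolic synthetases and 15.3% of all genes. The part of this list in the synthetase differences was not tested. Of 5 fibroblast markers, 4 were tested and 1 was called as lower in number 1, where 3.57% of all genes were. It was Dcn, with -0.58 ± 0.08 (SE, limma, adjusted p = 0.0159). Pdgfra, Col1a1 and Col1a2 differed by -0.21, -0.14 and -0.22 and did not pass (limma, adjusted p = 0.282, 0.377 and 0.175). The mean level of the 5 markers was 8.27 and 8.28 in the arrays numbered 1 and 8.48 to 8.56 in the others. The part of these markers in the synthetase differences was not tested. Myotube markers had a median difference of -0.018 (6 lower, 4 higher), with a mean level of 10.90 in silenced array 1 and 10.89 in control array 1. In 2 of these 10 genes, Myog and Tnnc2, both arrays numbered 1 were lowest, where 15.3% of all genes had that order. At that share 10 genes hold few such cases, so the count is a description only. The differences of Myog and Tnnc2 were -0.29 ± 0.08 and -0.11 ± 0.08 (SE, limma, adjusted p = 0.0827 and 0.465). Of 5 osteoblast and chondrocyte markers, 3 were tested, with a median difference of 0.264 (1 lower, 2 higher). The mean level of the 5 was 4.626 in silenced array 1, 4.748 in control array 1 and 4.495 to 4.559 in the others. The 4 markers of undifferentiated myoblasts had a median difference of -0.083 (3 lower, 1 higher). The part of differentiation state in the synthetase differences was not tested.

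**Figure D4:**
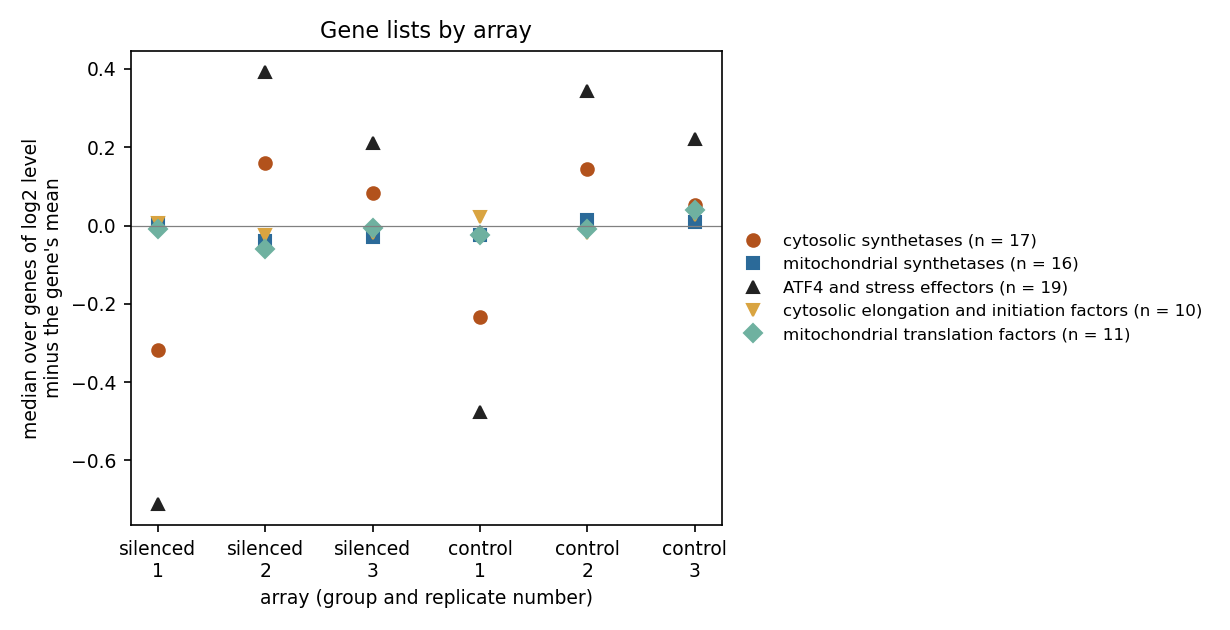
Median over the genes of a list of the log2 level minus the gene's own mean over 6 arrays (vertical axis), by array (horizontal axis), for 5 gene lists. The lists of cytosolic synthetases and of ATF4 and its stress effectors are lowest in silenced array 1 and control array 1 (-0.71 and -0.48 for the ATF4 list), while the medians of the other 3 lists lie between -0.060 and 0.039.

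For other parts of the translation machinery the calls are given beside the 6.49% of all genes that the contrast called in either direction, a share at which lists of this size hold few or no calls, so their counts are a description only. Cytosolic elongation and initiation factors had a median difference of 0.024 over 10 measured genes, and mitochondrial translation factors -0.025 over 11, with 0 called in each. The scaffold genes of the multisynthetase complex were not called: Aimp1, Aimp2 and Eef1e1 differed by -0.090 ± 0.106, 0.22 ± 0.13 and 0.33 ± 0.08 (SE, limma, adjusted p = 0.656, 0.334 and 0.0690). Uncharged-tRNA sensing genes, 4 in all, gave 0 calls, and Eif2ak4, which encodes GCN2, differed by -0.15 ± 0.09 (SE). Among 4 genes of the mitochondrial amidotransferase and of formylation, Qrsl1, a subunit of the enzyme that makes mitochondrial glutaminyl-tRNA, was called as higher in number 1, by 0.44 ± 0.08 (SE, limma, adjusted p = 0.0347), while Gatb, Gatc and Mtfmt were not called. Among 5 genes of tRNA export and editing, 1 was called, the tRNA export receptor gene Xpot, chosen after its values were seen, with -0.57 ± 0.08 (SE, limma, adjusted p = 0.0151). Tarsl2, a further cytosolic threonine enzyme gene, differed by -0.0093 ± 0.1677 (SE).

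The promoters of the cytosolic genes were searched for TGATGNAA, the core of the C/EBP-ATF response element that ATF4 is known to bind, on both strands of the window from 250 bases before to 50 after the gene start (RefSeq, GRCm38.p6). Of the 33 members, 24 matched an entry, and Cars, Hars, Hars2, Lars, Nars, Pars2, Rars, Vars and Wars did not. The letters occurred in 4 of 10 cytosolic promoters (Gars, Iars, Tars and Yars), in 0 of 14 mitochondrial promoters, and in 4.51% of all 27025 genes with an entry. In the ATF4 list they occurred in 8 of 18. All 4 cytosolic genes with a match were among the 12 whose arrays numbered 1 lay lowest. Of those 12 genes 7 had an entry, and of the other 5 cytosolic genes 3 had, so most promoters searched were of the 12. Whether the match goes with the difference was not tested. Eprs, Mars1 and Sars, also among those 12, had no match in this window. A match is a description of the letters and not a binding site. The 4 promoters with a match are shown with the match in capitals. That of Kars, which holds no match, follows as 1 example, and its difference for number 1 was 0.028. The promoters of Eprs, Mars1 and Sars, with no match and differences of -0.53, -0.49 and -0.58, are not printed.
Tars (chr15:11399609-11399908, minus strand): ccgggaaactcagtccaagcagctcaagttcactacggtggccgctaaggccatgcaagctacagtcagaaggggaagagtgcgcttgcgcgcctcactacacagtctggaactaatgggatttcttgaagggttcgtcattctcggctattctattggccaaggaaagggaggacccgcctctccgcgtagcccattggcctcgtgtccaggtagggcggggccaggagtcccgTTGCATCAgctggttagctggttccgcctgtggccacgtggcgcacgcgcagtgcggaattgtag
Gars (chr6:55037751-55038050, plus strand): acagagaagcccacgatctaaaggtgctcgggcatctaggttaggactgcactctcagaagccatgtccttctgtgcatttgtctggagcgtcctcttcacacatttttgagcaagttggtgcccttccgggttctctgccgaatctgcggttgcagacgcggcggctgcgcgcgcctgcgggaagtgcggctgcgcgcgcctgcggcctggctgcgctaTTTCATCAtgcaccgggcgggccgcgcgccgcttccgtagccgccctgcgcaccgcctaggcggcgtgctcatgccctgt
Yars (chr4:129189653-129189952, plus strand): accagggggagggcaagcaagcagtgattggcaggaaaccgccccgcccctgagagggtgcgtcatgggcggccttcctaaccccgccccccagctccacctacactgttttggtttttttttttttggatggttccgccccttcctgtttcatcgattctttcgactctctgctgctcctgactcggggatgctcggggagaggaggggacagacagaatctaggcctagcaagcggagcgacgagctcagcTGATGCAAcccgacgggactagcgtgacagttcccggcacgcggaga
Iars (chr13:49681880-49682179, plus strand): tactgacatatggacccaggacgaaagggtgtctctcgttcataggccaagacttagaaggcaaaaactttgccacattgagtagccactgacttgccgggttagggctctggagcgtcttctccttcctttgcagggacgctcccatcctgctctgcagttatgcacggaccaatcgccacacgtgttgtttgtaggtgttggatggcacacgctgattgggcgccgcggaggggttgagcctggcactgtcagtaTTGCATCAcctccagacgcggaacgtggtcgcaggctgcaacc
Kars (chr8:112011305-112011604, minus strand): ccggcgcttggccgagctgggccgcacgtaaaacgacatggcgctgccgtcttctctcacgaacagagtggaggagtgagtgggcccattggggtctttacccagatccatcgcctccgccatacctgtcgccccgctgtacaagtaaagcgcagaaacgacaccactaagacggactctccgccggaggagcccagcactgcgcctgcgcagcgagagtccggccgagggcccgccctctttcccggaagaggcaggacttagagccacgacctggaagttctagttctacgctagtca
The match starts 15 bases before the gene start in Tars and 30 bases before it in Gars. It starts at transcribed base 4 in Yars and at transcribed base 8 in Iars. In Tars, Gars and Iars it lies on the opposite strand, so the letters printed there are its reverse complement.

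Silencing of miR-382 did not separate the synthetases as a group. The median difference, silenced minus control, was 0.0026 over the 17 cytosolic genes (8 lower, 9 higher), -0.020 over the 16 mitochondrial genes (9 lower, 7 higher) and 0.0089 over all tested genes. The limma fit with group alone called 0 of the 33 members and 0.0% of all genes (lowest adjusted p of a member 0.871). Adding the numbers as a blocking term again gave 0 member calls and 0.0% of all genes (lowest adjusted p of a member 0.464). Rars was the 1 member below 0.05 before adjustment, as were 4.8% of all genes, and in the blocked fit Rars and Fars2 were, as were 10.3% of all genes. Within replicate numbers 1, 2 and 3 the cytosolic median differences were -0.099, 0.046 and -0.0017, and the mitochondrial ones 0.024, -0.074 and -0.096. Leaving out 1 array moved the cytosolic median to between -0.11 without control array 1 and 0.11 without silenced array 1.

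Rars was the 1 member whose silenced values all lay below the control values, where 4.87% of all genes had that order, and 0 members had the opposite order, which 6.94% of all genes had. It read 9.86, 9.92 and 9.92 in silenced arrays 1 to 3 and 10.14, 10.09 and 10.18 in control arrays 1 to 3, with means of 9.90 ± 0.04 and 10.13 ± 0.04 (SD, n = 3 each). The difference was -0.24 (95% confidence interval -0.41 to -0.06), 1.18-fold lower in silenced arrays, and did not pass over all genes (limma, adjusted p = 0.871). It was lower in all 3 same-numbered pairs, as were 7 of the 33 members, where 15.8% of all genes were. Without both arrays numbered 1 it was -0.21 (adjusted p = 0.480). The other cytosolic genes with the smallest p were Iars, at 0.15 ± 0.12, and Wars, at 0.15 ± 0.17 (SE, limma, adjusted p = 0.878 and 0.900). Iars and Wars were higher in silenced arrays in all 3 same-numbered pairs, and so was Vars2, where 19.7% of all genes were.

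**Figure D5:**
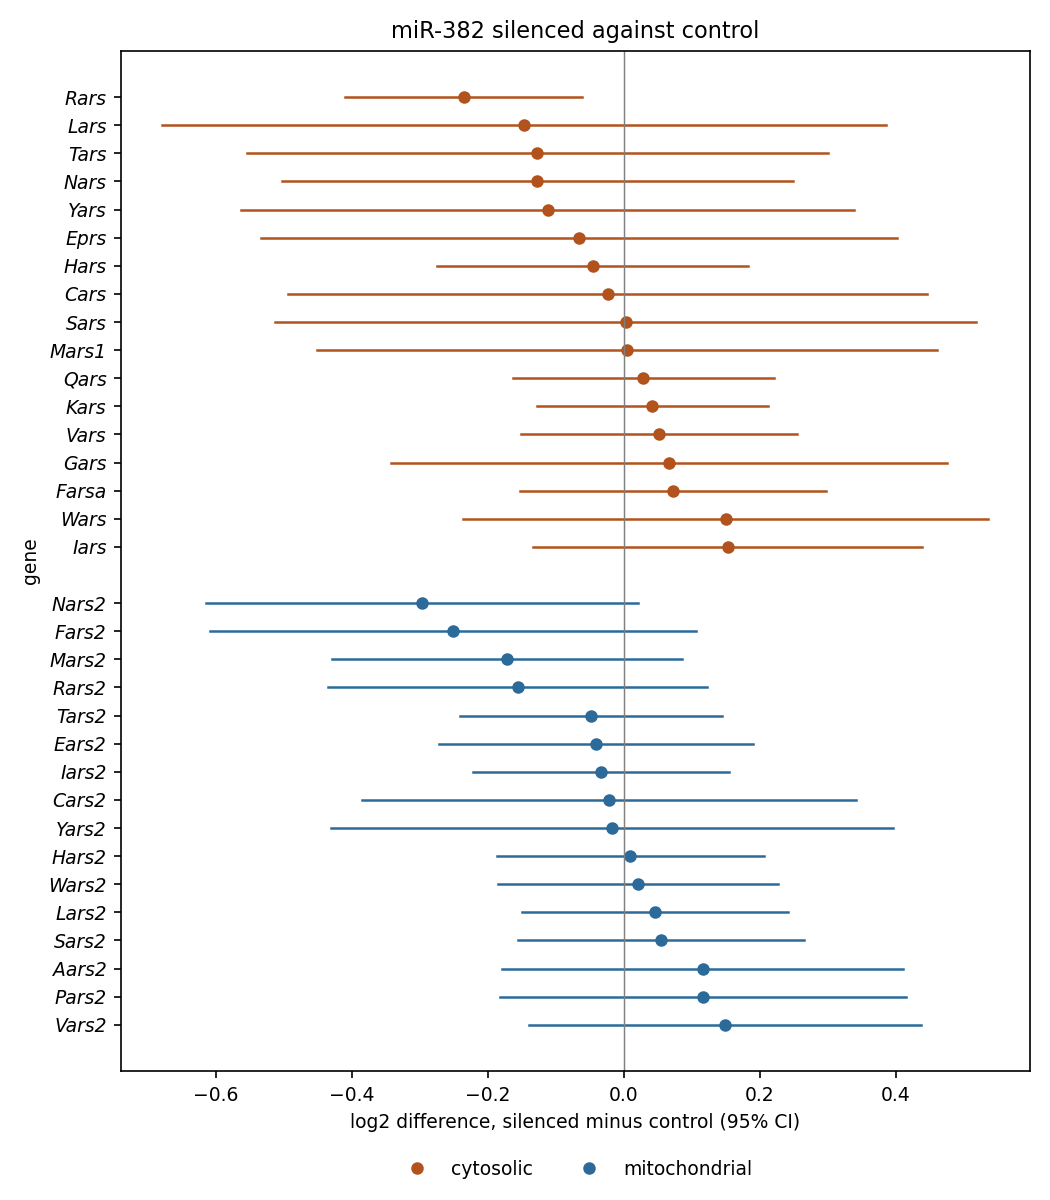
Fitted log2 difference, silenced minus control (horizontal axis), for each synthetase gene (vertical axis), with 95% confidence intervals from the fit without a block as bars, cytosolic genes above and mitochondrial genes below. The interval of Rars, -0.41 to -0.06, excludes 0 before adjustment, and those of the other 32 genes include it.

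Among mitochondrial enzymes, Nars2, Fars2, Mars2 and Rars2 had the smallest p and lower means in silenced arrays. Nars2, the asparagine enzyme, read 6.60, 6.47 and 6.35 in silenced arrays 1 to 3 and 6.50, 6.94 and 6.88 in control arrays 1 to 3. Its silenced values were lower in numbers 2 and 3 and higher in number 1, and the groups overlapped. The difference was -0.30 ± 0.14 (SE, limma, adjusted p = 0.871). In a fit added after the data were seen, blocked on the replicate number and without both arrays numbered 1, Nars2 was -0.50 ± 0.10 (SE, limma, adjusted p = 0.0374) and the 1 member called, where that fit called 1.1% of all genes on 4 arrays. Fars2, the phenylalanine enzyme, read 6.08, 6.18 and 6.31 in silenced arrays and 6.23, 6.32 and 6.78 in control arrays, with control array 3 the highest. Mars2, the methionine enzyme, read 5.61, 5.25 and 5.31 in silenced arrays and 5.59, 5.59 and 5.51 in control arrays, so that silenced array 1 lay just above the control arrays and the other silenced arrays below them. The differences of Fars2, Mars2 and Rars2 were -0.25 ± 0.15, -0.17 ± 0.11 and -0.16 ± 0.12 (SE, limma, adjusted p = 0.871, 0.871 and 0.876).

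For genes called between replicate numbers, the interval of the group difference depended on whether the number was a term of the fit. Sars differed by 0.0026, with a 95% confidence interval of -0.51 to 0.52 without the block and of -0.20 to 0.21 with it. Cars differed by -0.024 (-0.49 to 0.45 without the block and -0.20 to 0.15 with it), and Lars by -0.15 (-0.68 to 0.39 and, with the block, -0.40 to 0.10). Eprs differed by -0.066 (-0.53 to 0.40 and, with the block, -0.26 to 0.12), and Gars by 0.067 (-0.34 to 0.48 and, with the block, -0.12 to 0.26). The blocked intervals of these 5 genes were narrower and also included 0. Kars, with its small difference between numbers, differed between groups by 0.042, with nearly the same interval without the block (-0.13 to 0.21) and with it (-0.13 to 0.22).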

How the data were processed

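RNA of 6 C2C12 samples was labelled for Affymetrix whole-transcript arrays of 1 colour. The authors deposited log2 expression values for 35556 probe sets, summarised by RMA (named in the submitters' processing notes, per the labels). Neither the version of RMA nor the probe set definition is given in the sources used here, and no detection calls were used. Of 23099 annotated probe sets, 21218 name 1 gene, which gave 18820 genes. Those with a mean above the 40th percentile were tested 2-sided by moderated linear models (limma 3.58.1, R 4.3.3), for silenced against control with no covariate and for replicate number with group as a term. Scripts were tested on simulated data. The members and lists were chosen with earlier results of these data known, so medians and counts carry no p. All members are named; values per array follow the smallest p in each comparison and compartment, the extremes of level, and Gars, Kars and Eprs. Same-numbered arrays correlated in their deviations from the group means at 0.55, 0.35 and 0.42. On this evidence of the data they were taken as paired in the same-numbered differences and the blocked fits. The main fit of silenced against control was unpaired. Alternatives changed the filter, the normalization, the probe set rule, the variance model, the block and the arrays used.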

Additional observations from a re-analysis of the deposited data

How the results depend on the processing

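The number of arrays limits the precision, and counts of calls between replicate numbers rest on 2 arrays per number. The F test called 3 members and 352 genes. These became 5 members and 514 genes with arrays centred on the median, and 11 members and 1090 genes with an intensity trend and robust variances. They became 10 members and 847 genes above the 60th percentile, and 0 members and 58 genes with no low-value limit. Without both arrays numbered 1 they became 0 members and 98 genes, in a fit that leaves 1 contrast of number 2 with number 3. Leaving out 1 array gave 0 to 8 members and 17 to 1070 genes. The 9 cytosolic genes called in number 1 became 0 with no low-value limit and 0 to 9 with 1 array left out. The 1 mitochondrial gene became 0 with no low-value limit, 2 with the intensity trend and 0 to 2 with 1 array left out. Counts over all genes for this contrast under these settings are not given here. The cytosolic median for number 1 ranged from -0.44 to -0.35 with 1 array left out, and the mitochondrial one from -0.029 to 0.023, and was -0.033 above the 60th percentile. For silenced against control, 0 members and 0 genes were called by limma in all settings but 1: the replicate block without both arrays numbered 1 called 1 member and 124 genes. With the replicate block alone the counts were 0 members and 0 genes. The cytosolic median ranged from -0.11 to 0.11 and the mitochondrial one from -0.031 to 0.023 with 1 array left out. The Rars difference stayed between -0.26 and -0.21 over all 15 alternatives. The causes of these changes were not tested.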
